A study of Mus musculus with 6 samples.

Results

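T and natural killer (NK) lymphocytes were sought in 6 single-cell RNA libraries of mouse melanoma tumours, and 127 of 43843 cells met the definition. A cell was taken as a T or NK lymphocyte when it held at least 2 UMIs (unique molecular identifiers, each counting 1 captured transcript) over Cd3d, Cd3e, Cd3g, Ncr1 and Nkg7, at least 1 UMI of Ptprc (the pan-leukocyte gene CD45), at most 1 UMI over C1qa, C1qb and C1qc, and at most 2 over S100a8 and S100a9. The cells were thus chosen by the measured counts of these genes, and the levels of the genes are a description. Subsets were cut in the same way. CD8 cells held Cd8a or Cd8b1, CD4 cells held Cd4 without either, regulatory cells held Foxp3, and NK cells held Ncr1 without Cd3d, Cd3e or Cd3g.

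Cells of Yumm5.2, a melanoma line kept in culture, had been implanted in the flank of C57BL/6 mice. Every line, control included, carried a hairpin RNA that targets Cdkn2a. The control line (shControl) carried a control hairpin beside it, and the knockdown lines carried hairpin 1 or hairpin 2 against Slc39a9, which encodes a zinc transporter. Mice with tumours of each line were given 200 µg of anti-PD1 or of IgG 3 times a week, so that there was 1 library for each of 3 lines and 2 treatments. The libraries of a knockdown group were therefore different hairpin lines (n = 2 for each treatment), the control was 1 line (n = 1 for each treatment), and the number of tumours in a library was not stated. The hairpins were in the implanted cells, while the lymphocytes came from the host.

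T cells recognise antigen through a receptor whose chains signal with the CD3 proteins, and CD8 T cells and NK cells kill target cells with perforin and granzymes. Regulatory T cells, which depend on the transcription factor Foxp3, restrain the other lymphocytes. PD-1, encoded by Pdcd1, is an inhibitory receptor of activated T cells, and antibodies that block it are used to release them.

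The libraries held between 58859821 and 83204249 UMIs and between 5081 and 8858 cells that passed the filters. The targeted gene was lower in both knockdown lines. In tumour-line cells (no Ptprc UMI, at least 1 Xist UMI and no UMI of Y-linked genes), Slc39a9 stood at 22.9 CPM (the share of a gene in all UMIs of the summed cells, on the usual CPM scale) in the control line with IgG and 20.9 with anti-PD1, against 7.57 and 7.81 with hairpin 1 and 12.6 and 10.8 with hairpin 2. The lymphocytes themselves held 4 Slc39a9 UMIs over all libraries. The median lymphocyte had 1840 UMIs, against 3675 in 7522 macrophages and 13615 in 8171 tumour-line cells. Macrophages held Ptprc, at least 3 C1q UMIs and at most 2 UMIs over S100a8 and S100a9. They also held at most 1 UMI over Cd3d, Cd3e, Cd3g, Ncr1 and Nkg7, and so were chosen to hold few lymphocyte transcripts. Each pair of libraries shared between 3859 and 6923 barcode sequences. This was between 63.2% and 89.5% of the kept cells of the smaller library, and its cause was not tested. No lymphocyte barcode was a lymphocyte in more than 1 library. There were 274 pairs of a lymphocyte and a kept cell with the same barcode in another library.

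The cells carried the genes of their label. Of 127 cells, 126 held a UMI of a CD3 gene (part of the definition), Cd247, Trac, Trbc1 or Trbc2, which encode parts of the T cell receptor complex. All but 19 of the cells held a CD3 UMI, so most of this count followed from the definition. Genes outside the definition that stood furthest above macrophages and tumour-line cells included Icos, a costimulatory receptor, at 1046 CPM against 0.746 in macrophages, Trbc2 at 809 CPM against 0.373, Gzmb at 806 CPM against 0.613, and Il2rb, a chain of the interleukin-2 receptor, at 667 CPM against 0.320. Just inside the definition, 39 cells held exactly 2 UMIs of the defining genes, and just outside it another 39 held 1. A further 16 cells met the other limits but held no Ptprc UMI. They numbered 1 and 1 in control with IgG and anti-PD1, 1 and 5 with hairpin 1, and 4 and 4 with hairpin 2. Tumour-line cells were chosen without Ptprc and so could not meet the definition. Of these 8171 cells 14 held a UMI of Cd3d, Cd3e, Cd3g, Ncr1 or Nkg7, and 0 held 2 or more.

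A few barcodes also carried many UMIs of genes used here to mark RNA of the tumour line. Sparc, a secreted matrix glycoprotein, and Crabp1, a retinoic acid-binding protein, together reached 37 to 187 UMIs in 8 lymphocyte barcodes and 6 or fewer in the other 119, of which 79 held none. These 8 barcodes are called barcodes with tumour-line RNA below, though the source of that RNA was not tested. Xist, which helped define tumour-line cells, had 1, 1 and 4 UMIs in some of them and 0 in the others. The 8 barcodes were 6.30% of the cells and held 32.3% of all lymphocyte UMIs. They included all 6 barcodes with more than 10000 UMIs, and 1 of them was marked as a doublet by Scrublet. They numbered 1 in the control library with anti-PD1, 1 in hairpin 1 with anti-PD1, 2 in hairpin 2 with IgG and 4 in hairpin 2 with anti-PD1. Their share of lymphocyte UMIs in those libraries was 16.7%, 42.5%, 31.2% and 56.8%, and the other libraries had none. Because these barcodes were spread unevenly over the libraries, each result below was also computed without them. A link of their number with line or treatment was not tested. That setting was chosen after the data were seen.

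**Figure D1:**
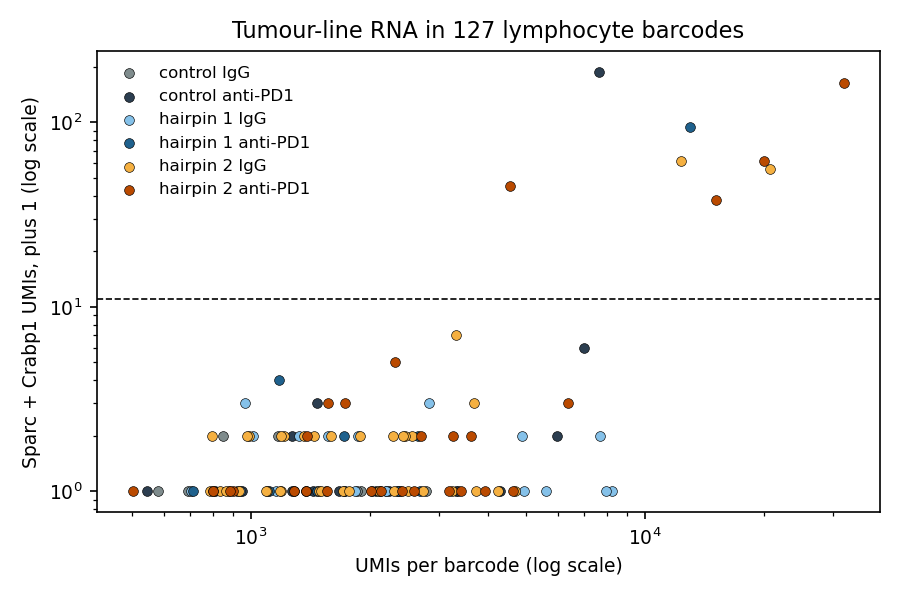
UMIs per barcode (x axis, log scale) against Sparc and Crabp1 UMIs plus 1 (y axis, log scale) for the 127 lymphocyte barcodes, coloured by library. The dashed line marks the minimum of 10 UMIs, and the 8 barcodes above it lie apart from the other 119.

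Markers of other cell types were present at varied levels. The summed level of 15 macrophage markers ranged from 158 to 916 CPM over the libraries, against 32480 CPM in macrophages. It was led by Lyz2, a lysozyme gene of myeloid cells, with 70 UMIs. Hairpin 2 with IgG was highest and held 97 of the 161 UMIs of this list. Of its 52 Lyz2 UMIs, 39 lay in 1 cell. Without the barcodes with tumour-line RNA the list stood at 1305 CPM in that library. Dendritic cell markers ranged from 252 to 1728 CPM, against 8589 CPM in macrophages, and were led by Cst3, a protease inhibitor, with 140 UMIs. Hairpin 2 with IgG held 183 of their 333 UMIs. Of 16 neutrophil markers 9 were at 0, and the list ranged from 61.7 to 340.0 CPM, with 58 of its UMIs from Il1r2, a decoy receptor for interleukin-1. The B cell list ranged from 61.7 to 406 CPM, above the 33.9 CPM of macrophages, with 98 of its 106 UMIs from Ighm, an immunoglobulin heavy chain gene. The fibroblast list ranged from 123 to 1630 CPM with all barcodes and from 78.9 to 252 CPM without those holding tumour-line RNA. Mast cell, endothelial and erythroid lists reached at most 63.3, 94.6 and 123 CPM. The part of these RNAs in the results was not tested.

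Lymphocytes were rare in every tumour. There were 10 in the control library with IgG and 17 with anti-PD1, 21 in hairpin 1 with IgG and 11 with anti-PD1, and 41 in hairpin 2 with IgG and 27 with anti-PD1. As a share of all cells these were 0.129% (95% Clopper-Pearson interval 0.0621 to 0.238%), 0.192% (0.112 to 0.307%), 0.413% (0.256 to 0.631%), 0.178% (0.0889 to 0.318%), 0.530% (0.381 to 0.718%) and 0.327% (0.215 to 0.475%), in that order. The intervals cover counting error only. Hairpin 2 with IgG was highest, control with IgG was lowest, and the intervals of both anti-PD1 hairpin libraries overlapped those of both control libraries. The interval of hairpin 1 with IgG overlapped that of control with anti-PD1, and the interval of hairpin 2 with IgG overlapped neither control interval.

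Among cells with a Ptprc UMI, lymphocytes made up 0.495% and 0.632% in the control libraries with IgG and anti-PD1, 1.53% and 0.632% with hairpin 1, and 2.17% and 1.37% with hairpin 2. The mean log2 share of all cells was 1.09 higher in the knockdown libraries than in control, and that of Ptprc cells 1.22 higher. Neither difference passed an exact two-sided permutation test over the 6 libraries (p = 0.200 for each, 0.560 after Benjamini-Hochberg adjustment over the 14 share comparisons). That design allows no p below 0.067. The groups overlapped, since hairpin 1 with anti-PD1 lay below control with anti-PD1. Without the tumour-line RNA barcodes the difference in the log2 share of all cells was 1.03 (exact permutation p = 0.200).

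Anti-PD1 and IgG libraries did not separate in lymphocyte share, in a test that did not pair libraries by line. The mean log2 share of all cells was lower with anti-PD1 by a difference of -0.45 (exact permutation p = 0.600, the smallest possible being 0.1), and that of Ptprc cells by -0.53 (exact permutation p = 0.600). Within lines, the share of all cells with anti-PD1 was 1.48 times that with IgG in control tumours, 0.431 times with hairpin 1 and 0.617 times with hairpin 2. The control line and the hairpin lines thus moved in opposite directions, with 1 library at each point, and that difference was not tested.

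**Figure D2:**
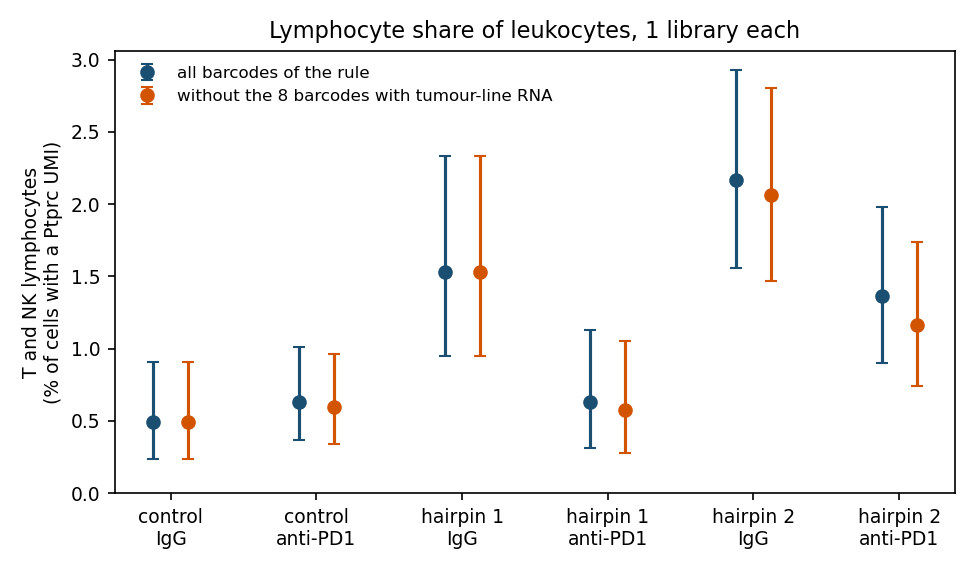
T and NK lymphocytes as a percentage of cells with a Ptprc UMI (y axis) in each of the 6 libraries (x axis), with 95% Clopper-Pearson intervals of counting error, for all barcodes and without the 8 with tumour-line RNA. The share was highest in hairpin 2 with IgG at 2.17% and lowest in control with IgG at 0.495%.

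Over all libraries there were 35 regulatory, 30 CD8, 27 CD4 and 15 NK cells, and 43 cells fell in none of these. The shares of regulatory cells (27.6%, 95% Clopper-Pearson interval 20.0 to 36.2%) and CD8 cells (23.6%, 16.5 to 32.0%) overlapped. Of the 27 CD4 cells 22 also held Foxp3, so the 2 subsets largely described the same cells. A further 12 regulatory cells held no Cd4 or CD8 UMI, and 1 held a CD8 UMI. Of the 35 regulatory cells, 28 held Il2ra (the high-affinity interleukin-2 receptor chain CD25) or Ikzf2 (the transcription factor Helios), and 33 held Ctla4 or Icos. Of the 43 cells in no subset 39 held a CD3 UMI, and their median depth of 1443 UMIs was below that of CD8 cells (2037.5), regulatory cells (1891) and NK cells (2345).

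The NK cells held NK receptors but also receptor transcripts. All 15 held Klrb1c, Klrd1 or Eomes, and their Eomes level, which encodes a transcription factor of NK and memory CD8 cells, was 383 CPM. (Levels by subset are given for the summed cells without tumour-line RNA.) Of the 15 cells 14 held a T cell receptor constant-region UMI. In all 14 this was Trbc1, while Trbc2 was found in 7 and Trac in 1.

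The subset shares were measured on few cells. CD8 cells made up 5 of 10 and 3 of 17 lymphocytes in the control libraries with IgG and anti-PD1, 6 of 21 and 3 of 11 with hairpin 1, and 8 of 41 and 5 of 27 with hairpin 2. Regulatory cells numbered 2, 5, 5, 2, 12 and 9 in the same order, or 20.0%, 29.4%, 23.8%, 18.2%, 29.3% and 33.3%. Regulatory shares overlapped between genotypes and between treatments. CD4 cells numbered 0, 4, 5, 2, 10 and 6, and the count of 0 of 10 in control with IgG allows a share of up to 30%. NK cells numbered 1, 2, 3, 2, 2 and 5.

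Cycling cells, those with a UMI of the proliferation genes Mki67 or Top2a, numbered 2, 5, 8, 5, 10 and 9 in that order of libraries. Their share was higher with anti-PD1 than with IgG in all 3 lines, at 29.4% against 20.0% in control, 45.5% against 38.1% with hairpin 1 and 33.3% against 24.4% with hairpin 2. NK shares were also higher with anti-PD1 in all 3 lines, from 10.0 to 11.8%, from 14.3 to 18.2% and from 4.88 to 18.5%. None of the 10 subset comparisons passed an exact permutation test, which did not pair libraries by line (p between 0.200 and 1). For cycling cells the mean difference between treatments was 8.57 percentage points (exact permutation p = 0.300). Of the 8 barcodes with tumour-line RNA 7 were cycling, against 32 of the other 119, and without them the difference was 4.16 (exact permutation p = 0.500). The CD4 difference between genotypes was 10.4 percentage points with all barcodes and 14.5 without those 8, where it reached the smallest p the design allows (exact permutation p = 0.067). A UMI of Top2a was found in 15.1% of macrophages at their greater depth.

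The signs of these differences varied with the cells used. When each cell was thinned to 1500 UMIs and the 50 shallower cells were left out, which kept 77 of the 127, 6 of the 10 subset differences changed sign, among them the CD8 difference between genotypes, from -10.4 to 11.8 percentage points. The library of control with IgG, with 10 lymphocytes, decided others: without it the CD4 difference between genotypes went from 10.4 to -1.38 percentage points.

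**Figure D3:**
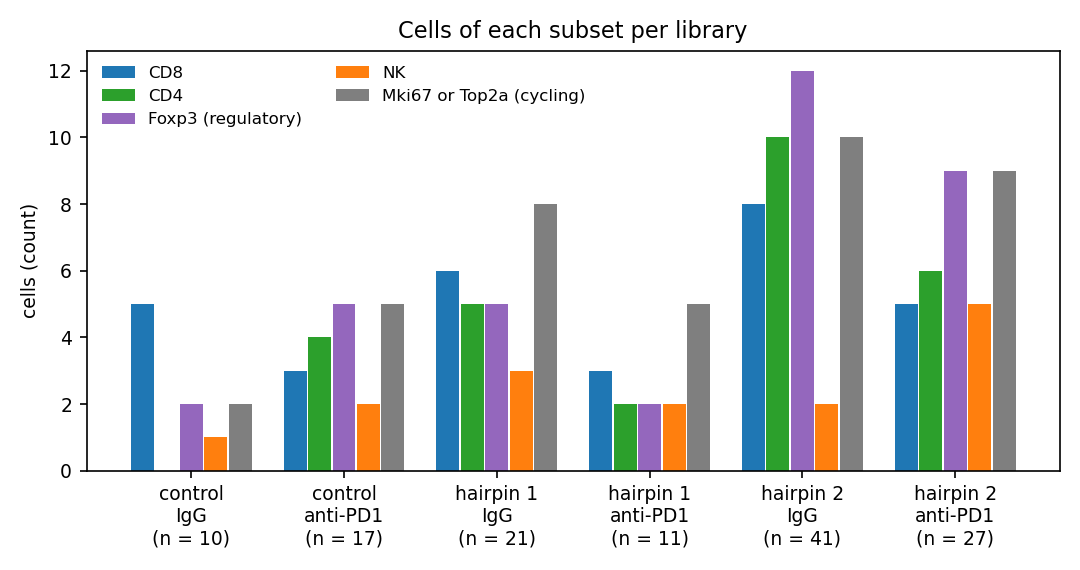
Number of cells (y axis) in each subset for each library (x axis, with the number of lymphocytes as n). Subsets overlap, and the counts run from 0 CD4 cells in control with IgG to 12 Foxp3 cells in hairpin 2 with IgG.

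The subsets differed in which killing genes they carried. Gzmb, a granzyme that triggers death of the target cell, stood at 1955 CPM in regulatory cells, 673 CPM in CD8 cells and 444 CPM in NK cells. It was detected in 31 of 35 regulatory, 11 of 30 CD8 and 11 of 15 NK cells, and in 0.133% of macrophages. Prf1, the pore-forming protein perforin, was at 1110 CPM in NK cells, 74.8 CPM in CD8 cells and 0 in regulatory cells. Regulatory cells thus held the most Gzmb of these subsets and no perforin UMI. The exact Poisson interval of that 0, over all 35 regulatory cells, reached 43.0 CPM.

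Other granzymes lay in NK cells. Gzmc stood at 3511 CPM in NK cells, 299 CPM in CD8 cells and 0 in regulatory and CD4 cells, and its 253 UMIs came from 16 cells. Gzmd stood at 1029 CPM and Gzma at 444 CPM in NK cells, against 59.8 and 44.9 CPM in CD8 cells. Gzmd and Gzmf came from 5 and 6 cells, and granzymes of this cluster are near copies of one another, so that their split between genes is uncertain. Of the 16 cytotoxic genes with at least 20 UMIs, 10 were highest in NK cells, 5 in CD8 cells and 1 in regulatory cells. Because subsets were cut by counts of the same cells, these levels carry no test.

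Gzmb (chr14:56258838-56262260, minus strand) and Gzmc (chr14:56231441-56234656, minus strand) are neighbours in 1 granzyme cluster on mm10, yet their levels differed between NK and regulatory cells. Xcl1 (chr1:164931644-164935527, minus strand) encodes a chemokine that attracts cross-presenting dendritic cells. For these 3 protein-coding genes, the 250 bases before the RefSeq start (GRCm38.p6, 5′ to 3′ on the gene's strand) are given, because Gzmb was highest in regulatory cells while Gzmc and Xcl1 were highest in NK cells. Capitals mark matches on either strand to a RUNX word (TGTGGT), a family of factors used in killer lymphocytes, and an AP-1 word (TGANTCA), bound by Fos and Jun proteins.
Gzmb, chr14:56262335-56262584: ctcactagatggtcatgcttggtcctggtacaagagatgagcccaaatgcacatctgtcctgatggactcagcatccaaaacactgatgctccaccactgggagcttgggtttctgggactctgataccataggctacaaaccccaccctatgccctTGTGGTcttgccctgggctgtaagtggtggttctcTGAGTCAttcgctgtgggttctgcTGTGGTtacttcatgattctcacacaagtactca
Gzmc, chr14:56234658-56234907: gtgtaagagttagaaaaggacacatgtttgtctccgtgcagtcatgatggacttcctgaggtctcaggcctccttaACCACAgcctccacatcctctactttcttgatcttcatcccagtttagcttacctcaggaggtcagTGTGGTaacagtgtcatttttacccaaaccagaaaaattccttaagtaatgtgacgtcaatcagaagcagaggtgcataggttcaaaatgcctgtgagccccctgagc
Xcl1, chr1:164935523-164935772: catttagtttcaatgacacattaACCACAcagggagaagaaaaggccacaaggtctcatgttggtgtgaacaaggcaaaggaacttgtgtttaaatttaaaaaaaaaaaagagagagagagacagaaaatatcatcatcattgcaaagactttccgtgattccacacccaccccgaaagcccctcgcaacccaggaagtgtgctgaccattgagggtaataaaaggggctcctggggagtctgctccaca
Gzmb held 2 RUNX matches, at 93 and 34 bases before the start, and 1 AP-1 match at 58. Gzmc held 2 RUNX matches and Xcl1 held 1. The RUNX word was in 14.0% and the AP-1 word in 6.75% of 32851 promoters of the same length, and a match is a description of these letters.

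Regulatory cells carried costimulatory and inhibitory receptors. Ctla4, an inhibitory receptor that competes with Cd28, stood at 3156 CPM in regulatory cells, 643 CPM in CD8 cells and 60.5 CPM in NK cells. It was detected in 27 of 35 regulatory cells and in 12.0% of macrophages, whose median depth was greater. Icos stood at 3131 CPM in regulatory cells, 494 CPM in CD8 cells and 60.5 CPM in NK cells. Tnfrsf9 (4-1BB), Tnfrsf4 (OX40) and Tnfrsf18 (GITR), costimulatory receptors of the TNF family, were at 1955, 1188 and 1188 CPM in regulatory cells against 553, 224 and 284 CPM in CD8 cells.

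The regulatory cells also held tissue and homing genes. Ccr2, a receptor for monocyte-attracting chemokines, was at 1917 CPM in regulatory cells, 1271 CPM in NK cells and 389 CPM in CD8 cells, and was found in 41.1% of macrophages. Klrg1, a lectin-like receptor of terminally differentiated lymphocytes, was at 754 CPM in regulatory cells, 59.8 CPM in CD8 cells and 0 in NK cells. Areg, an epidermal growth factor family ligand linked to tissue repair, was at 345 CPM in regulatory cells and 0 in CD8 and NK cells. Bcl2, a survival protein, had the reverse order, at 0 in regulatory cells, 389 CPM in CD8 cells and 545 CPM in NK cells.

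CD8 cells held few transcripts of the drug's target. Pdcd1 had 24 UMIs in 16 cells over all libraries, with 105 CPM in CD8 cells, 89.5 CPM in regulatory cells and 20.2 CPM in NK cells, whose counting intervals overlapped. By library it had 3 and 2 UMIs in control with IgG and anti-PD1, 8 and 2 with hairpin 1, and 0 and 9 with hairpin 2. The inhibitory receptors Tigit, Lag3 and Havcr2 had 27, 17 and 36 UMIs, against 400 of Ctla4. Havcr2 was found in 28.2% of macrophages. Lef1, a transcription factor of naive and memory T cells, was highest in CD8 cells at 419 CPM, against 102 CPM in regulatory cells.

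Interferon gamma (Ifng) came mostly from 1 cell. It had 2 UMIs in each control library, 5 in each hairpin 1 library, 5 in hairpin 2 with IgG and 34 in hairpin 2 with anti-PD1, of which 31 lay in a single CD8 cell. Its 53 UMIs were spread over 15 cells, 8 of them CD8, and no macrophage held one.

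**Figure D4:**
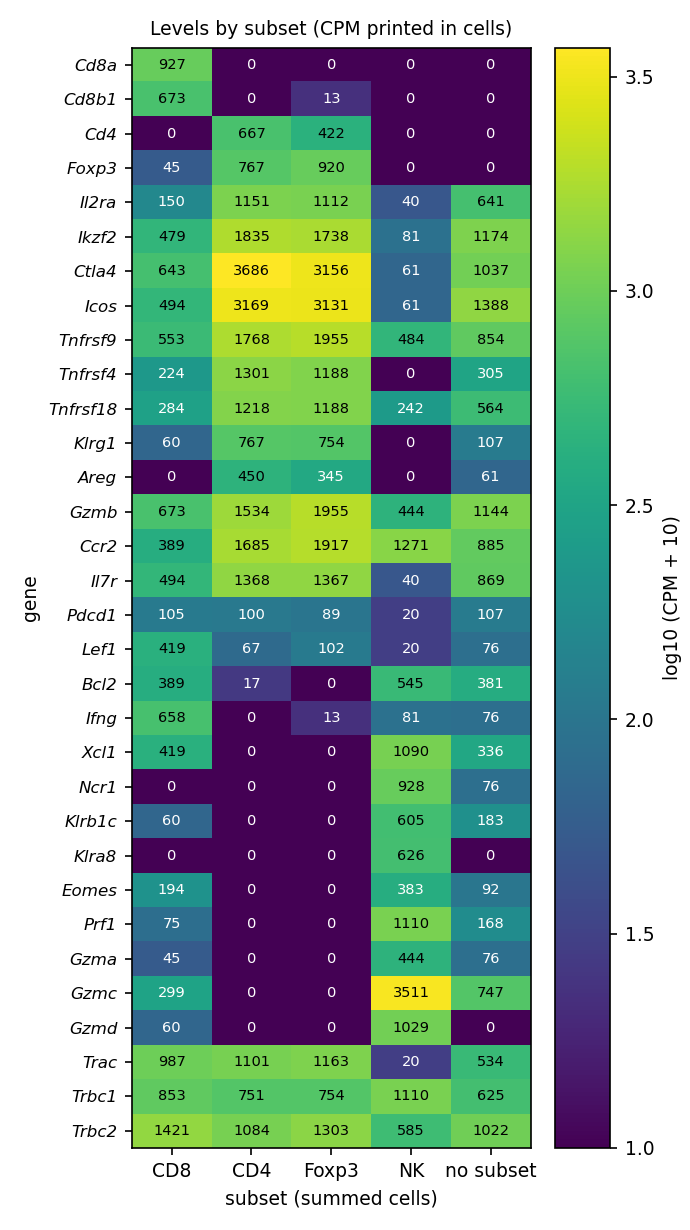
CPM (printed in each square and coloured as log10 of CPM plus 10) of named genes (y axis) in the summed cells of each subset (x axis), without the 8 barcodes with tumour-line RNA. Perforin and Gzmc were highest in NK cells (1110 and 3511 CPM), while Gzmb, Ctla4 and Icos were highest in the CD4 and Foxp3 columns, which share cells.

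Knockdown and control tumours were compared over lymphocyte counts summed per library. No gene passed an adjusted p of 0.05 in edgeR's quasi-likelihood test (0 of 1502 genes, 0% called). The count at an unadjusted p under 0.05 was 82, and DESeq2 called 0. The lymphocyte sums were small, from 16199 UMIs in control with IgG to 126372 in hairpin 2 with anti-PD1.

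Genes with the smallest p among those higher in knockdown were Top2a, a topoisomerase of dividing cells, with a log2 difference of 2.09 ± 0.46 (SE), and Lgals1, a secreted galectin, with 1.48 ± 0.34 (adjusted p = 0.649 in edgeR for each). Lowest in p among those lower was Fam105a, at -2.18 ± 0.58, followed by Txnip, a thioredoxin-binding protein induced by glucose, at -1.49 ± 0.40, and Nfkbiz, a nuclear inhibitor of NF-kappa B, at -1.43 ± 0.41. Next in p among higher genes were Tpm1 (2.25 ± 0.56), Col3a1 (3.29 ± 0.86) and Lgals3 (1.78 ± 0.50). Without the tumour-line RNA barcodes Top2a was at 1.62, Fam105a at -1.89, Txnip at -1.23, Nfkbiz at -1.26 and Lgals1 at 0.84. Lgals3 was then at 0.10, and Tpm1 and Col3a1 were not tested. The smallest p among higher genes then belonged to Klra7, a receptor of NK cells (4.29 ± 1.06, edgeR adjusted p = 0.270), and Xcl1 (3.16 ± 0.89). Among lower genes it belonged to Gzmd (-2.17 ± 0.65). None of these passed the test.

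The gene lists had no called member. The 11 tested cytotoxic genes had a median log2 difference of -0.67, with 10 lower and 1 higher in knockdown, against 0.05 over all genes tested, and -0.27 over 12 genes without tumour-line RNA. The 11 tested NK genes had a median of 0.61, with 8 higher, and 0.88 over 12 genes without tumour-line RNA. The 9 regulatory genes had -0.09 with all barcodes and 0.53 without, with 3 and then 8 of them higher. The 5 tested G2/M genes were all higher, with a median of 1.5, which was 0.55 over 3 genes without tumour-line RNA.

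Anti-PD1 and IgG lymphocytes likewise gave 0 of 1502 genes (0% called) by edgeR, 63 at an unadjusted p under 0.05, and 1 by DESeq2. With the line as a block, edgeR called 2 genes, both higher with anti-PD1: Lgals1 (log2 difference 1.55, adjusted p = 0.0193) and Cd9, a tetraspanin (2.76, adjusted p = 0.0287). Lgals1 had 926, 1245.7 and 1785 CPM in the IgG libraries of control, hairpin 1 and hairpin 2, and 1379, 4921 and 5064 CPM with anti-PD1. Without the barcodes with tumour-line RNA, Lgals1 had a log2 difference of 0.23 on 324 of its 1137 UMIs and Cd9 was too low to be tested, with 16 of its 180 UMIs remaining.

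Lymphocyte genes gave values without calls. Gzmf was lower with anti-PD1 at a log2 difference of -3.67 ± 0.84 (edgeR adjusted p = 0.353), on 57 UMIs in 6 cells. Ctla4 was at -0.14 ± 0.48 with all barcodes and 0.33 ± 0.37 without tumour-line RNA. Icos was at 0.44 ± 0.56 and then 0.89 ± 0.41 (edgeR adjusted p = 1.000 for each of these values). Without tumour-line RNA, the smallest p among genes higher with anti-PD1 belonged to Penk, the precursor of enkephalin peptides (2.51 ± 0.60, edgeR adjusted p = 0.109), Fos, an immediate early transcription factor (1.45 ± 0.38), and Ifng (2.18 ± 0.66). Penk had 0 and 16 UMIs in control with IgG and anti-PD1, 6 and 0 with hairpin 1, and 14 and 66 with hairpin 2. For Ifng, 31 UMIs lay in 1 cell of hairpin 2 with anti-PD1. The 11 cytotoxic genes had a median of 0.00 with all barcodes and 0.57 over 12 genes without tumour-line RNA, against 0.01 and 0.02 over all genes. The 14 tested MHC class I genes had a median of -0.33, with 13 lower, and -0.07 over 15 genes without tumour-line RNA.

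No gene was called for an anti-PD1 difference that varied with genotype (0 of 2475, 0% called by edgeR, 130 at an unadjusted p under 0.05, 0 by DESeq2). Within CD8 cells 278 genes could be tested, of which 0 were called for knockdown (0%, 13 at an unadjusted p under 0.05, 0 by DESeq2). Gzmb in CD8 cells had a log2 difference of -2.76 ± 0.77 (edgeR adjusted p = 0.353), and without tumour-line RNA -2.51 ± 0.82 (edgeR adjusted p = 0.508). For anti-PD1 within CD8 cells 1 was called (0.36%), which was Sparc (log2 difference 4.05 ± 0.64, edgeR adjusted p = 0.0285). Sparc counts marked the barcodes with tumour-line RNA, so its call could not be examined without them. It was not among the 129 genes then tested, of which 0 were called (7 at an unadjusted p under 0.05).

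Lymphocytes of hairpin 2 and hairpin 1 tumours differed in 4 of 1502 genes by edgeR (0.266% called). This set 1 line against 1 line, and the spread in the test was that between the treatments of a line. No replicate of a line entered it, and the same holds for each hairpin line against control below. Higher with hairpin 2 were Igfbp4, a binding protein for insulin-like growth factors (log2 difference 3.36 ± 0.49, adjusted p = 0.00953), Ctsl, a lysosomal protease (3.02 ± 0.46, adjusted p = 0.00953), and Grem1, a secreted antagonist of bone morphogenetic proteins (3.02 ± 0.46, adjusted p = 0.00953). Igfbp4 had 2 and 9 UMIs with IgG and anti-PD1 in hairpin 1 lymphocytes and 77 and 243 in hairpin 2 lymphocytes. Of these, barcodes with tumour-line RNA held 0, 6, 65 and 235. Without them Igfbp4 and Grem1 were too low to be tested and Ctsl had a log2 difference of 2.02 ± 0.55 (edgeR adjusted p = 0.270).

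Xcl1 was lower with hairpin 2 than with hairpin 1 (log2 difference -2.90 ± 0.46, edgeR adjusted p = 0.00991), and remained so without tumour-line RNA (-2.79 ± 0.47, adjusted p = 0.00775, 1 of 1283 genes called, 0.0779%). It had 46 and 33 UMIs in hairpin 1 lymphocytes with IgG and anti-PD1, 9 and 17 with hairpin 2, and 2 and 2 in control. These were 725 and 1075 CPM, 85 and 135 CPM, and 123 and 43.8 CPM, so both hairpin 1 libraries lay above all others. The transcripts came from 9 of 21 and 4 of 11 hairpin 1 cells, 3 of 41 and 7 of 27 hairpin 2 cells, and 2 of 10 and 1 of 17 control cells. One hairpin 1 cell with anti-PD1 held 24 of the 33 UMIs. By subset Xcl1 was at 1089.8 CPM in NK cells, 419 CPM in CD8 cells and 0 in CD4 and regulatory cells, and it was found in 0.0133% of macrophages. DESeq2 gave Xcl1 an adjusted p of 0.0549, and without barcodes over 10000 UMIs edgeR gave 0.101. With each library left out in turn the log2 difference ranged from -3.09 to -2.70.

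The other NK genes lay on the same side. Of the 11 tested NK genes, Xcl1 among them, 0 were higher and 11 lower with hairpin 2 than with hairpin 1, with a median log2 difference of -1.65, against 0.03 over all genes tested. Without tumour-line RNA the median was -1.53 over 12 genes, all lower. Xcl1 was the 1 called member. The NK share of lymphocytes was 14.3% and 18.2% in the hairpin 1 libraries and 4.88% and 18.5% in the hairpin 2 libraries, and its part in these levels was not tested. Fewer NK cells and less RNA per NK cell cannot be told apart in such sums.

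Against control, Xcl1 was higher with hairpin 1 at a log2 difference of 3.82 ± 0.64 (edgeR adjusted p = 0.0783; 0 of 1502 genes called, 0%, with 100 at an unadjusted p under 0.05 and 0 by DESeq2). Without tumour-line RNA it passed the test (4.14 ± 0.66, adjusted p = 0.0036), as did Klra7, a Ly49 receptor of NK cells (5.12 ± 1.02, adjusted p = 0.0324), which made 2 of 1283 genes (0.156%). With all barcodes and each library left out in turn, the log2 difference ranged from 2.77 to 4.55 for Xcl1 and from 2.96 to 8.50 for Klra7. The lowest values came without control with anti-PD1, where neither gene passed, and the highest without control with IgG, which left a control with 0 Klra7 UMIs. The NK list had a median of 1.10 with all barcodes, with 10 of 11 higher, and 1.43 over 12 genes without tumour-line RNA. Klra7 had 1 and 0 UMIs in control, 36 and 11 with hairpin 1, and 6 and 31 with hairpin 2, and 1 hairpin 1 cell held 23. The Ly49 genes are near copies of one another, so the count of a single one is uncertain. Hairpin 2 against control gave 0 of 1502 genes (0%, 137 at an unadjusted p under 0.05, 0 by DESeq2).

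**Figure D5:**
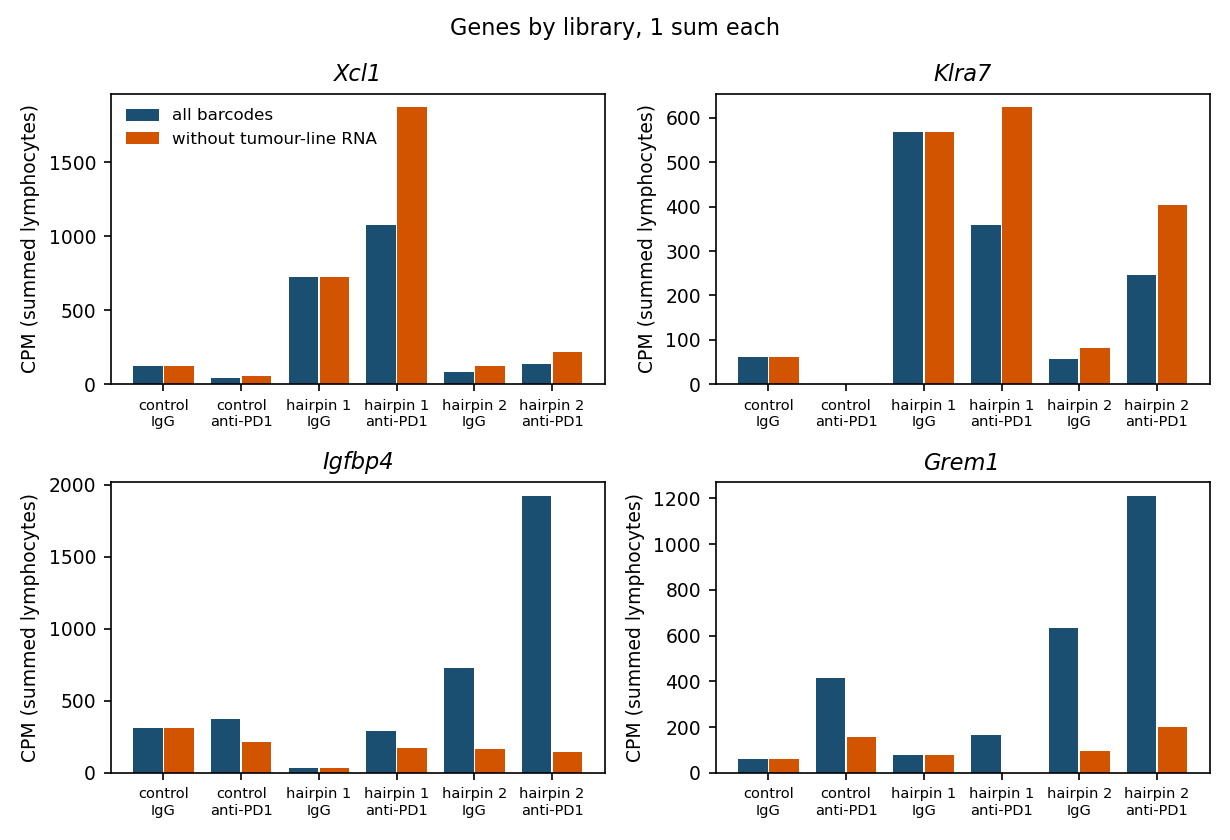
Level in summed lymphocytes (y axis, CPM) in each library (x axis) of Xcl1, Klra7, Igfbp4 and Grem1, with all barcodes and without the 8 with tumour-line RNA. Xcl1 stayed highest in both hairpin 1 libraries either way, while Igfbp4 in hairpin 2 stood at 727 and 1923 CPM with all barcodes and 165 and 147 CPM without them.

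The knockdown difference in lymphocytes was also set against that in macrophages of the same libraries. Of 12039 genes 2 differed by edgeR (0.0166% called), Tgfbi, an extracellular matrix protein, and Spp1, the secreted protein osteopontin. Both differences were in the direction of higher knockdown values in lymphocytes than in macrophages, and DESeq2 called 0. Without tumour-line RNA 0 genes were called. The Spp1 difference was then 0.69 ± 0.52 against 2.30 ± 0.47 on the log2 scale, while that of Tgfbi was 11.42 ± 3.14 against 11.99 ± 2.38.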

How the data were processed

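Tumours were digested enzymatically, strained, treated to remove red cells and made into libraries with a benchtop single-cell RNA kit, per the labels' protocols. The authors deposited UMI counts per gene and barcode, produced with Cell Ranger 7.0.1 on mm10 per the submitters' processing notes, and the counts were used as deposited. Barcodes with at least 500 UMIs, 300 genes and at most 20% mitochondrial UMIs were kept (43843 of 43929). Scrublet (scanpy 1.11.5, expected rate 0.06) marked 583 doublets, which were kept except in an alternative.

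Counts were summed over lymphocytes per library and tested with edgeR 4.0.16 (quasi-likelihood, TMM, filterByExpr, adjusted p under 0.05 after Benjamini-Hochberg over all genes tested), with DESeq2 1.42.0 as an alternative. R 4.3.3 was used. The SE after each edgeR log2 difference is the size of that difference over the square root of the F statistic, and is approximate. The knockdown fit was also run on simulated counts with a fixed spread. It recovered 6 of 51 genes changed 2-fold, 40 of 52 changed 4-fold and 46 of 50 changed 8-fold. Among 1393 unchanged genes it made 7 false calls. The spread was not taken from these libraries, so what the fit can detect in the real sums was not tested. Shares were compared with exact permutation tests over libraries in scipy 1.17.1, two-sided, with Clopper-Pearson 95% intervals; levels have exact Poisson intervals. Genes were picked for naming as the 10 called of smallest p in each direction, or the 5 of smallest p where fewer than 5 were called. Those whose mean over the 6 sums was under 20 CPM and those that defined the cells were left out. Not every picked gene is given in the text, and none is given for the interaction or for hairpin 2 against control. Members and lists were chosen with earlier results of these data known, and genes described by subset were chosen after their values were seen. No label says that libraries came from separate animals, so p-values measure the spread between libraries. Where 1 line was set against 1 line in edgeR, that spread was the one between the treatments of a line. IgG and anti-PD1 libraries of a line come from the same cell line. The main edgeR test of anti-PD1 used genotype and treatment without the line, and the share tests did not use this pairing. The line as a block was an alternative. Deviations of the IgG and anti-PD1 libraries of a line correlated at 0.080, 0.080 and 0.293 over 1502 genes. Of 31053 gene identifiers 31011 were found in GENCODE M21.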

Additional observations from a re-analysis of the deposited data

Results flagged for a closer look

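In the control line the share of lymphocytes among all cells was higher with anti-PD1 than with IgG by 0.0625 percentage points, while both hairpin lines moved the other way, by -0.235 and -0.203. Among Ptprc cells the control difference was 0.137 percentage points and those of the hairpin lines -0.901 and -0.801. CD4 cells as a share of lymphocytes were 23.5 percentage points higher with anti-PD1 in the control line, where IgG had 0 of 10, and the hairpin lines moved by -5.63 and -2.17. These 3 differences between lines were not tested.

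The knockdown difference was larger in lymphocytes than in macrophages for Spp1, by 2.30 on the log2 scale (edgeR adjusted p = 0.00773), and for Tgfbi, by 11.99 (edgeR adjusted p = 0.00581). Without the barcodes with tumour-line RNA neither passed the test: Spp1 was at 0.69 (edgeR adjusted p = 1) and Tgfbi at 11.42 (edgeR adjusted p = 0.968). The fitted value of Tgfbi depends on the prior count and is no bound.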

How the results depend on the processing

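Of 163 alternative values of the share comparisons 12 changed sign and the other 151 kept their direction and side of the threshold. Thinned to 1500 UMIs without the 50 shallower cells, the differences were 11.8 (CD8, knockdown against control), 2.41 (CD8, anti-PD1 against IgG), -0.494 and -0.0818 (CD4), -12.3 (regulatory, anti-PD1) and -9.08 percentage points (NK, knockdown). With each library left out in turn, they ranged from -26.5 to 5.82 (CD8, knockdown), -1.38 to 22.2 (CD4, knockdown), -2.79 to 9.41 (CD4, anti-PD1), -3.26 to 6.15 (regulatory, knockdown) and -0.562 to 7.01 (regulatory, anti-PD1). The cause was not tested.

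Genes called by edgeR without a filter on low counts numbered 4 (knockdown), 14 (anti-PD1), 26 (hairpin 2 against hairpin 1), 5 (hairpin 1 against control) and 29 (hairpin 2 against control). DESeq2 called 1 for anti-PD1, 2 for the hairpins and 0 for lymphocytes against macrophages. The line as a replicate block gave 2 for anti-PD1 and changed none of the anti-PD1 share results. Genotype is fixed by line and cannot be blocked by it; a fit with 1 term per line, comparing the mean of the hairpin lines with control, called 0 for knockdown. Without barcodes over 10000 UMIs the counts were 1 (anti-PD1), 1 (interaction), 0 (hairpin 2 against hairpin 1) and 1 (hairpin 1 against control). Without tumour-line RNA they were 1 (hairpins), 2 (hairpin 1 against control), 0 (CD8, anti-PD1) and 0 (lymphocytes against macrophages).

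With each library left out, calls ranged from 0 to 6 (anti-PD1, with 6 without hairpin 2 IgG), 0 to 6 (interaction), 7 to 45 (hairpins), 0 to 12 (hairpin 1 against control), 10 to 36 (hairpin 2 against control) and 0 to 15 (lymphocytes against macrophages, with 15 without hairpin 1 IgG). In the fits with 1 term per line, leaving out a library left its line with 1 library. The number of genes tested also rose from 1502 to between 1785 and 2722. Their counts of calls are therefore not comparable with those of the main fits. Among genes named, 22 alternatives moved a value across the threshold and 0 reversed one. The smallest lymphocyte sum was 16199 UMIs, and the part of depth was not tested.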
